A study of Drosophila melanogaster with 18 samples.

Results

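Inos (CG11143, FBgn0025885) encodes inositol-3-phosphate synthase, and its RNA was followed here in the larval fat body of 2 populations of *D. melanogaster*. It is 1 gene of the 16438 in the count table and 1 of the 12460 that reached an average of 15 counts per library. Inos was picked because its early wandering libraries differed strongly between the populations, so its early levels, and every comparison that involves them, are given below as a description without a test.

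The enzyme turns glucose-6-phosphate into inositol-3-phosphate, which is the first and committed step when a cell makes myo-inositol instead of taking it up. After a phosphatase has removed the phosphate, free inositol is built into phosphatidylinositol, the membrane lipid from which phosphoinositides and the second messenger IP3 are made, or it is oxidised to glucuronate. The larval fat body stores lipid and glycogen, makes the storage proteins of the hemolymph and detoxifies food compounds, and so combines roles of the vertebrate liver and adipose tissue.

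Fat bodies came from female larvae of a Dutch population (NL, the Netherlands) and a Zambian population (ZI, Zambia). Each was sampled at the early wandering stage, when larvae have just stopped feeding and the gut still holds dyed food, at the late wandering stage, when the gut is clear, and as white prepupae. There are 3 libraries for each of the 6 combinations, and each library is a pool over all isofemale strains of its population, 12 Dutch or 10 Zambian. No strain, driver or agent separates the libraries other than population and stage, and all larvae were reared on the same dyed medium. Because the 3 libraries of a group pool the same strains, the p-values below measure the spread between pools and not between genotypes. In pooled tissue, fewer expressing cells and less RNA per cell cannot be told apart.

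Library totals were 14998610 to 37250385 counts. The fat body markers, 6 storage protein and fat body protein genes, summed to between 148015 and 252344 TPM (transcripts of each gene per length, scaled to a fixed total per library) in every library, which fits the labelled tissue. Lists of marker genes of other tissues had far lower sums. Those whose sums separated the groups compared are given beside the results on Inos, with some of those that had called genes only.

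In the Ensembl annotation of the BDGP6 (dm6) assembly, Inos lies on the minus strand of chromosome arm 2R from 7454922 to 7458874 and spans 3953 bases. It has 1 annotated transcript with 5 exons that sum to 1986 bases, the same length as in the count table, and its coding sequence of 1695 bases (565 codons) runs through all 5 exons. The first intron, of 1761 bases, is the longest stretch between exons in a gene whose remaining introns are short. The 5′ UTR covers 137 bases of exon 1 and the 3′ UTR 151 bases of exon 5. No other annotated gene overlaps Inos, transposable elements left aside. Whether its counts depend on the use of strand was not tested.

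Inos was counted in every library, and its level was highest in Dutch early larvae. The Dutch early libraries held 4445, 4588 and 5468 counts of Inos, which correspond to 190, 206 and 189 CPM (counts scaled to a fixed library size with TMM factors). The Zambian early libraries held 586, 683 and 419 counts, or 17.3, 22.4 and 17.5 CPM. The lowest Dutch early library thus lay far above the highest Zambian one. In late larvae the Dutch libraries stood at 86.4, 26.2 and 32.3 CPM, from 2431, 910 and 943 counts. The Zambian late libraries stood at 18.4, 20.2 and 8.70 CPM, from 628, 543 and 292 counts. The late groups did not overlap either, but Dutch replicate 1 was well apart from its 2 sister pools, and Zambian replicate 3 was below its own. In prepupae the Dutch libraries were at 9.35, 11.4 and 9.38 CPM, from 319, 182 and 327 counts. The Zambian prepupal libraries were at 6.83, 4.13 and 6.38 CPM, from 228, 84 and 243 counts. All Dutch prepupal libraries were above all Zambian ones, within a range much narrower than in larvae.

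**Figure D1:**
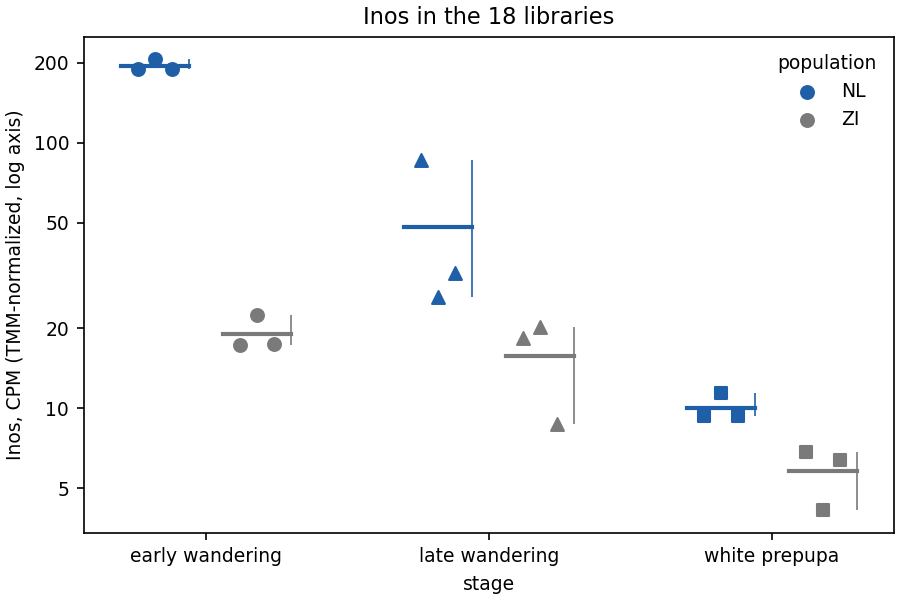
Inos in CPM on a log axis for each of the 18 libraries, by stage, with NL in blue and ZI in grey. Points are libraries, horizontal lines group means and thin vertical lines the range of the group. The Dutch early libraries sit between 189 and 206 CPM and the Zambian ones between 17.3 and 22.4, and the groups of the 2 populations do not overlap at any stage.

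From highest to lowest, the group means were 195 ± 9.52 CPM in Dutch early larvae, 48.3 ± 33.1 in Dutch late larvae, 19.1 ± 2.90 in Zambian early larvae, 15.8 ± 6.18 in Zambian late larvae, 10.1 ± 1.19 in Dutch prepupae and 5.78 ± 1.45 in Zambian prepupae (SD, n = 3 each). The libraries of Zambian early and late larvae overlapped, as did those of Zambian late larvae and Dutch prepupae, so the order within these pairs is not set by the data. The other neighbours in this order did not overlap. The highest of the 18 libraries was 49.95 times the lowest.

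On the TPM scale, which corrects for gene length, Inos averaged 113 ± 5.69 TPM in Dutch early larvae and 12.8 ± 2.41 in Zambian early larvae. It ranked between 494 and 542 by TPM among the 12460 genes in the Dutch early libraries, and between 2441 and 3092 in the Zambian ones. In Dutch prepupae 65.6 to 68.2% of genes were expressed below it, and in Zambian prepupae 50.3 to 58.9%. A gene near the top of the range in Dutch early larvae was therefore close to the middle of it in Zambian prepupae.

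The spread between pools differed from group to group. The coefficient of variation was 4.88% in Dutch early larvae, where counting error alone is 1.44%, and 68.6% in Dutch late larvae, where counting error is 2.87%. It was 15.2% in Zambian early, 39.2% in Zambian late, 11.8% in Dutch prepupal and 25.1% in Zambian prepupal libraries, against counting errors of 4.28 to 7.98%. Both late groups had a wider spread than the other groups of their population, and in all 6 groups the spread exceeded the counting error, which covers the sampling of reads only.

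The early difference that led to the choice of Inos was a fitted log2 fold change of 3.35 (SE 0.35), a ratio of group means of 10.2. Inos ranked 11 by fold change among the 564 genes called higher in Dutch early larvae, which are 4.53% of those tested. All its Dutch early libraries lay above all Zambian ones, as for 14.9% of genes, and groups that do not overlap in either direction were found for 26.2%. Nothing is read from these shares, since the choice of Inos fixed its place among them. The genes next to it in that ranking were Lgr4, a leucine-rich repeat receptor (log2 fold change 3.42), just above, and CecC, the antimicrobial peptide Cecropin C (3.28), just below. Lgr4 was low throughout, with means of 9.82 CPM in Dutch and 0.905 CPM in Zambian early larvae. The CecC value rests on uneven Dutch pools, which ran from 2.56 to 29.0 CPM, whereas the Dutch early pools of Inos ran from 189 to 206 CPM.

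Late wandering larvae were not used in the choice of Inos, and there it was up-regulated in the Netherlands, with a log2 fold change of 1.62 (SE 0.34) and an adjusted p of 0.00203 by edgeR's quasi-likelihood test over all genes. The ratio of the group means was 3.06. At this stage 27.8% of all genes passed the test and 13.7% were higher in the Netherlands, and 1.13% of genes had a more positive fold change than Inos. All Dutch libraries lay above all Zambian ones, as they did for 19.3% of genes, and 39.9% of genes did not overlap in either direction. An exact two-sided permutation test of the log2 CPM values gave p = 0.1, the smallest value 3 against 3 libraries allow. Without Dutch late replicate 1, the log2 fold change was 0.97, with an edgeR adjusted p of 0.0083, and the Dutch mean of the other pools, 29.3 CPM, was 1.86 times the Zambian mean. When the late libraries were fitted without the other 12, the log2 fold change was 1.67 and its adjusted p 0.0519.

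The late libraries also differed in how far their most variable genes had moved from the early to the prepupal state. A stage position was computed for each library from the 500 most variable genes other than Inos, with 0 at the mean of the early and 1 at the mean of the prepupal libraries. Dutch late replicate 1, with the most Inos, was at 0.446, and the other Dutch late libraries at 0.597 and 0.672. The Zambian late libraries were at 0.744, 0.666 and 0.788, and the last of these had the least Inos. Dutch replicate 3 and Zambian replicate 2, with nearly equal positions of 0.672 and 0.666, had 32.3 and 20.2 CPM of Inos. In the early libraries the positions of the populations overlapped, from -0.035 to 0.005 in Dutch and from -0.016 to 0.067 in Zambian libraries, while Inos did not. Some early marker sums did not overlap between the populations. The fat body list summed to 225601 to 237792 TPM in Dutch and 245421 to 252344 TPM in Zambian early libraries, with none of its 6 genes called by edgeR. The female gonad list summed to 3.22 to 3.48 against 4.59 to 6.58 TPM, with 1 of 6 genes called, nanos, which was lower in the Netherlands. The neuron list summed to 54.2 to 55.1 against 67.2 to 74.4 TPM, but its 1 called gene of 6, para, was higher in the Netherlands, and 7.53% of all genes were called at this stage. The part of these in the Inos differences was not tested.

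**Figure D2:**
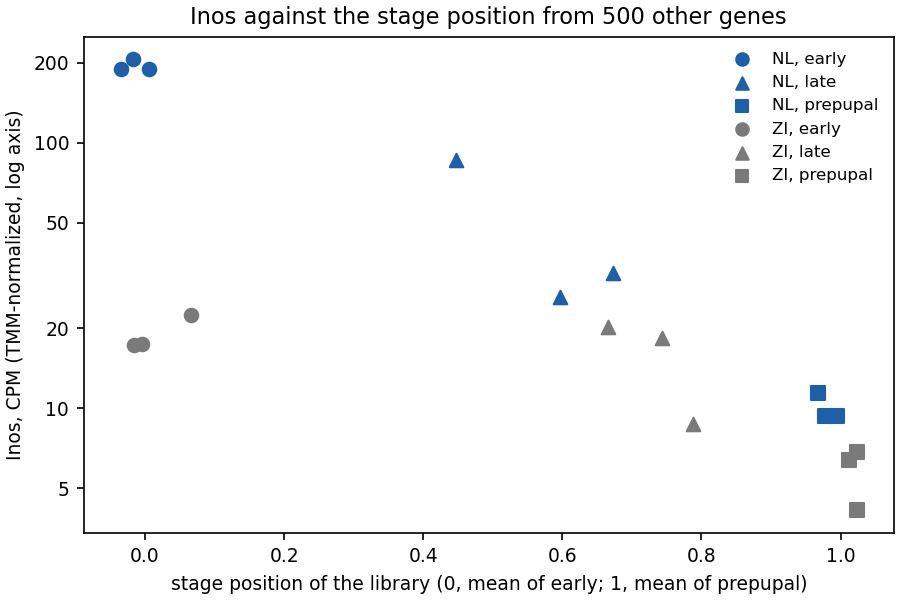
Inos in CPM (log axis) against the stage position of the library, computed from 500 other genes, where 0 is the mean of early and 1 the mean of prepupal libraries. At positions near 0 the Dutch libraries are at 189 to 206 CPM and the Zambian libraries at 17.3 to 22.4 CPM, and Dutch late replicate 1, at 0.446 and 86.4 CPM, lies closest to the early libraries of all late ones.

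RNA typical of other tissues also differed between the late groups. The muscle list (Mhc, Mlc2, up, wupA, Act57B and Tm2) summed to 122, 64.4 and 65.8 TPM in the Dutch late libraries and to 30.6 to 39.9 TPM in the Zambian ones, and 2 of its 6 genes, Mhc and Act57B, were called higher in the Netherlands, where 13.7% of all genes were. In early libraries the muscle sums of the populations overlapped, at 105 to 111 TPM in Dutch and 103 to 126 TPM in Zambian larvae. The median log2 CPM of 110 odorant, gustatory and ionotropic receptor genes, which a fat body should express little, was 0.23 to 0.49 in Dutch and -0.59 to -0.17 in Zambian late libraries. With this median as a covariate the late log2 fold change of Inos was 2.25, with an edgeR adjusted p of 0.0197. Since the median did not overlap between the late groups, it cannot be told apart from population there, and nothing is concluded from this fit. The Malpighian tubule list was higher in the Dutch late libraries, at 4.50 to 6.51 against 2.29 to 3.99 TPM in sum, with 1 of 3 genes called higher, and the salivary gland list was lower, at 17.3 to 36.5 against 42.3 to 64.3 TPM, with 2 of 6 genes called lower. The neuron list was lower in sum, at 85.5 to 97.2 against 116 to 142 TPM, while the median log2 fold change of its 6 genes was 0.63, with Syt1 called lower and para higher. Their part in the late difference was not tested.

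The midgut list, 6 digestive proteases of which 5 reached the count minimum, was uneven between pools. It summed to 12.9, 9.21 and 142 TPM in the Dutch early libraries, which had 190, 206 and 189 CPM of Inos, and to 5.36 to 39.2 TPM in the Zambian ones. In the Dutch late libraries it summed to 11.2, 202 and 7.51 TPM, beside 86.4, 26.2 and 32.3 CPM of Inos, and in the Zambian ones to 3.55 to 56.0 TPM. The median log2 fold change of the 5 genes between the populations was 1.49 in early and 1.02 in late larvae, with 1 gene, Jon99Cii, called higher in the Netherlands at each of these stages. Its part in the Inos differences was not tested.

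In prepupae the log2 fold change between the populations was 0.77 (SE 0.35), and edgeR's test did not call Inos (adjusted p = 0.316, unadjusted p = 0.0405 by the same edgeR model). Few genes differed at this stage, with 4.75% called in all and 2.66% higher in the Netherlands. The ratio of the means was 1.74, the libraries did not overlap, as for 19.5% of genes in either direction and 9.33% with the Netherlands above, and 3.00% of genes had a more positive fold change. An exact two-sided permutation test again gave p = 0.1, its smallest possible value. A fit of the 6 prepupal libraries alone estimated the spread of Inos from those libraries only and gave the same log2 fold change of 0.77 with an SE of 0.16 and an adjusted p of 0.00744. In prepupae the deviations of same-numbered libraries of the populations correlated weakly, at 0.14 to 0.26. Replicate 2 had the fewest counts in both groups, 14998610 in Dutch and 17830666 in Zambian prepupae. Inos itself was highest in the Dutch and lowest in the Zambian replicate 2. Replicate number was also fitted as a block, which the permutation test does not use. The log2 fold change was then 0.78 with all libraries (adjusted p = 0.282) and 0.77 with the prepupal libraries alone (adjusted p = 0.00491, both by edgeR), the second of these fits chosen after the data had been seen. The call in prepupae thus depends on whether larval libraries contribute to the estimate of the spread. Stage positions did not overlap in prepupae either, at 0.967 to 0.996 in Dutch and 1.01 to 1.02 in Zambian libraries. The hemocyte list summed to 27.7 to 44.3 TPM in Dutch and 22.8 to 26.3 TPM in Zambian prepupae. Of its 7 genes 2 were called, the prophenoloxidase genes PPO1 and PPO2, both higher in the Netherlands. The log2 fold changes of the 7 genes ran from -0.60 to 1.99, with a median of 0.12. The muscle list summed to 19.7 to 67.9 and 17.3 to 19.4 TPM, with 1 of 6 called, Mhc, higher in the Netherlands. The neuron list summed to 107 to 124 TPM in Dutch and 158 to 169 TPM in Zambian prepupae, with 1 of 6 called, Syt1, lower in the Netherlands. Their part in the prepupal values was not tested.

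Over the 3 stages, all Dutch libraries were above all Zambian libraries of the same stage for Inos and for 299 genes in all, 2.4% of those tested, where the early stage is fixed by the choice of the gene. The fitted log2 fold change went from 3.35 in early to 1.62 in late larvae and 0.77 in prepupae.

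Within each population, Inos RNA fell toward metamorphosis, but from different starting levels. From the early to the late stage the Dutch mean dropped 4.04-fold, a log2 fold change of -2.02 (SE 0.33), and without Dutch late replicate 1 it was -2.54. The Dutch libraries of both stages did not overlap, as for 49.5% of genes, and 23.2% of genes were called lower at the late stage. The Zambian mean was 1.21-fold lower, a log2 fold change of -0.28 (SE 0.33), and without Zambian late replicate 3 it was 0.01. The Zambian libraries of both stages overlapped, while 47.6% of genes did not overlap and 17.0% were called lower. The difference between these changes was -1.74 (SE 0.47) on the log2 scale. All of these values contain the early libraries and are not tested. Marker lists moved over the same step. Of the fat body, hemocyte and muscle genes 5 of 6, 4 of 7 and 3 of 6 were called lower at the late stage in the Netherlands. In Zambia 4, 4 and 6 were, and the shares of all genes were 23.2% in the Netherlands and 17.0% in Zambia. In each population 1 fat body gene was called higher, and no hemocyte or muscle gene. Of the female gonad genes 4 of 6 were called higher in the Netherlands and 1 in Zambia, beside 18.4% and 18.7% of all genes. The neuron list summed to 54.2 to 55.1 TPM in Dutch early and 85.5 to 97.2 TPM in Dutch late libraries. In Zambian libraries it summed to 67.2 to 74.4 and 116 to 142 TPM. In each population 1 of its 6 genes was called higher and 1 lower. Of the 3 Malpighian tubule genes 1 was called higher and 1 lower in the Netherlands, and 2 lower in Zambia. The part of these lists in the Inos values was not tested.

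From the late stage to prepupae Inos fell in both populations. In the Netherlands it dropped 4.80-fold, a log2 fold change of -2.27 (SE 0.35) with an edgeR adjusted p of 0.000104, where 15.1% of genes were called and 7.45% fell. In Zambia it dropped 2.73-fold, a log2 fold change of -1.43 (SE 0.35) with an edgeR adjusted p of 0.00923, where 12.3% of genes were called and 8.69% fell. No prepupal library reached the lowest late library of its own population, and groups that do not overlap were found for 29.0% of genes in the Netherlands and 30.4% in Zambia. Over this step 3 of 6 muscle, 6 of 7 hemocyte and 5 of 6 salivary gland genes were called lower in each population. Of the 6 fat body genes 3 were called lower and 1 higher in the Netherlands, and 4 lower in Zambia. The neuron list summed to 85.5 to 97.2 TPM in Dutch late libraries and 107 to 124 TPM in Dutch prepupae. In Zambia it summed to 116 to 142 and 158 to 169 TPM. Of its 6 genes 1 was called higher in Zambia and none in the Netherlands. The female gonad sums rose without overlap in Zambia only, with no gene called. The part of these lists in the fall of Inos was not tested. The Zambian fall missed the threshold without late replicate 2 (log2 fold change -1.21, adjusted p = 0.0594) or without prepupal replicate 2 (-1.25, adjusted p = 0.0614). The falls of the 2 populations differed by -0.84 (SE 0.48) on the log2 scale, which did not pass the test (edgeR adjusted p = 0.339). Across all 3 stages, the Dutch early mean was 19.4 times the Dutch prepupal mean and the Zambian early mean 3.30 times the Zambian prepupal mean.

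Tau, an index of how far expression is confined to 1 of the 3 stages (0 for equal levels, 1 for a single stage), was 0.798 for Inos in the Netherlands, above 99.3% of genes, and 0.378 in Zambia, above 70.3%. The medians over all genes were 0.320 and 0.288. Because tau is computed with the early libraries, it too is a description.

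The rest of the pathway was followed in 7 lists with 52 genes, from the enzymes that act on inositol phosphates to those that make and use glucose-6-phosphate, of which 50 reached the count minimum. Between the populations 4 of the 50 were called in early larvae (2 higher and 2 lower in the Netherlands), or 8%, against 7.53% of all genes (4.53% higher, 3.00% lower). In late larvae 18 were called, or 36% against 27.8% (13.7% higher, 14.1% lower), and in prepupae 3, or 6% against 4.75% (2.66% higher, 2.09% lower). The early median log2 fold change of the 50 genes was 0.04, beside 0.03 over all genes, and single genes went both ways, from -1.25 to 0.57. In late larvae 4 of the 18 were higher and 14 lower in the Netherlands, with a median of -0.12 beside 0.04 over all genes. That split depends on the scaling: with upper-quartile factors 9 were called higher and 6 lower, and with factors from well-expressed genes 10 higher and 5 lower, while none of the 18 changed sign. These scalings raised the median of all genes by 0.21 and 0.24. With the chemosensory covariate 4 were called higher and none lower, 8 of the 18 changed sign, and Miox alone of them was still called in the same direction.

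**Figure D3:**
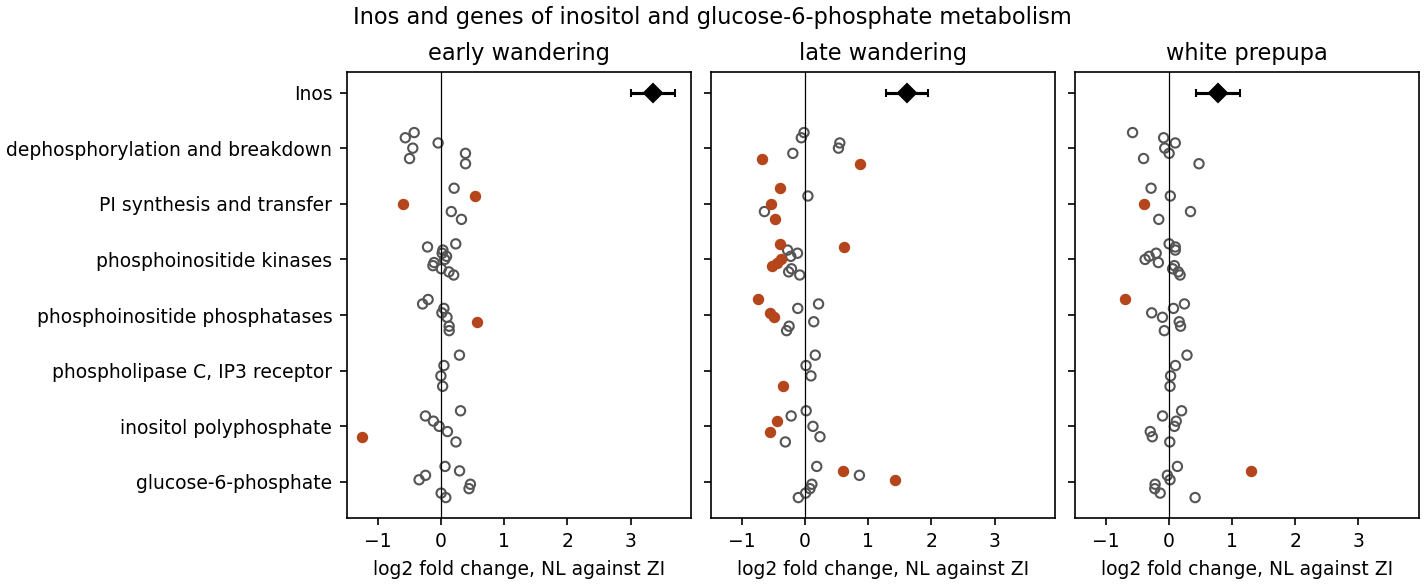
Log2 fold change, NL against ZI, of Inos (black diamond, with its SE) and of the 50 kept genes of the 7 lists (circles) at each stage. Filled circles passed the test, and open circles did not. Inos lies at 3.35, 1.62 and 0.77, and the early values of the listed genes run from -1.25 to 0.57.

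The enzymes next to Inos are those that release and oxidise inositol. CG9391, annotated as an inositol monophosphatase, would act directly on the product of Inos. Its group means ran from 13.6 to 19.7 CPM. It fell from the early to the late stage in the Netherlands, by 0.46 on the log2 scale (edgeR adjusted p = 0.00701), a call lost with both other sets of scaling factors. Its log2 fold changes between the populations were 0.38, -0.19 and 0.00 at the early, late and prepupal stages (edgeR adjusted p = 0.0775, 0.248 and 0.997). It is named although the rule for named genes did not pick it, after its values were seen. Ipp, inositol polyphosphate 1-phosphatase, was lower in the Netherlands in late larvae, with a log2 fold change of -0.68 (SE 0.18, edgeR adjusted p = 0.0111), a call that was lost with both other sets of scaling factors.

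Miox, myo-inositol oxygenase, consumes inositol in the first step of its breakdown, and it was by far the most abundant gene of its list, with a mean of 489 TPM. In early larvae it stood at 1272, 1200 and 1352 CPM in the Dutch libraries and at 872, 910 and 1145 CPM in the Zambian ones, groups that did not overlap although the difference was not called (log2 fold change 0.39, edgeR adjusted p = 0.497). In late larvae it stood at 1036, 511 and 401 CPM in the Dutch and at 188, 478 and 400 CPM in the Zambian libraries. The late groups overlapped, and the edgeR test called Miox higher in the Netherlands, with a log2 fold change of 0.87 (SE 0.29, adjusted p = 0.0352). DESeq2 gave 0.83 and an adjusted p of 0.0628. As for Inos, Dutch late replicate 1 held the most RNA of this gene among the late libraries. In prepupae it had fallen to 78.2, 114 and 88.1 CPM in Dutch and 69.1, 60.4 and 71.8 CPM in Zambian libraries.

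Miox fell at each step in both populations. From early to late larvae its log2 fold change was -0.97 in the Netherlands (adjusted p = 0.0123) and -1.46 in Zambia (adjusted p = 0.000539), and from the late stage to prepupae it was -2.80 and -2.40 (adjusted p = 3.85e-06 and 2.58e-05, all by edgeR). Per length, Miox exceeded Inos in every group, with means of 954 TPM against 113 TPM in Dutch early and 839 TPM against 12.8 TPM in Zambian early larvae.

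Phosphatidylinositol synthesis and transfer, the route by which inositol enters membranes, held 5 genes. Pis, phosphatidylinositol synthase, which joins inositol to its lipid partner, was the single member higher in Dutch early larvae. It stood at 32.2, 34.1 and 25.6 CPM in Dutch and 20.2, 19.2 and 23.6 CPM in Zambian early libraries, a log2 fold change of 0.54 (SE 0.15, edgeR adjusted p = 0.0310). Its late and prepupal libraries overlapped between the populations, at 20.7 to 34.2 CPM in all. rdgB, a phosphatidylinositol transfer protein known from photoreceptors, was lower in the Netherlands at every stage, by log2 fold changes of -0.61, -0.53 and -0.40 (edgeR adjusted p = 0.000623, 0.00147 and 0.0294). Its late call was not kept with factors from well-expressed genes. In late larvae vib, another transfer protein, and Cds, which makes the CDP-diacylglycerol that Pis uses, were also lower, with log2 fold changes of -0.47 and -0.39 (edgeR adjusted p = 0.0126 and 0.0402). The Cds call was lost with both other scalings.

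Of the 11 phosphoinositide kinases none was called between the populations in early larvae or in prepupae by edgeR, and the early values ran from -0.22 to 0.23 on the log2 scale. In late larvae 1 was higher and 4 were lower in the Netherlands, where 13.7% and 14.1% of all genes were. The largest of these values were 0.62 for PIP5K59B, which makes phosphatidylinositol 4,5-bisphosphate, and -0.53 and -0.45 for the phosphatidylinositol 4-kinases Pi4KIIalpha and Pi4KIIIalpha (edgeR adjusted p = 0.0461, 0.0268 and 0.0049). The Pi4KIIalpha call was lost with both other scalings, as were those of the remaining kinases called lower, PIP4K and Pi3K92E. DESeq2 gave 0.58 for PIP5K59B, with an adjusted p of 0.057. With the chemosensory covariate PIP5K59B, PIP4K and Pi3K92E changed sign and were not called. PIP4K had the highest mean level of the list, 32.2 TPM.

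Among 8 phosphoinositide phosphatases, Sac1, which removes phosphate from phosphatidylinositol 4-phosphate, was higher in Dutch early larvae, at 71.6, 73.3 and 64.8 CPM against 48.7, 42.7 and 49.8 CPM (log2 fold change 0.57, edgeR adjusted p = 0.00759). FIG4, a phosphatase of phosphatidylinositol 3,5-bisphosphate, was lower in the Netherlands in late larvae and in prepupae, by -0.75 and -0.70 on the log2 scale (edgeR adjusted p = 0.00048 and 0.00171), and both calls were kept with both other scalings. Its Dutch libraries of these stages were at 7.40 to 8.18 CPM and its Zambian libraries at 11.7 to 14.2 CPM. Ocrl, a 5-phosphatase, was lower in late larvae (log2 fold change -0.56, edgeR adjusted p = 0.00187).

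At the signalling end of the pathway, 1 of the 4 genes for phospholipases C and the IP3 receptor was called between the populations, the phospholipase C gamma gene sl in late larvae (-0.36 on the log2 scale, edgeR adjusted p = 0.0149, where 27.8% of all genes were called), a call lost with both other scalings. Itpr, the IP3 receptor, had the highest mean level of these, 12.5 TPM, and was not called at any stage. Of 7 inositol polyphosphate enzymes, 1 was called in early larvae, where 7.53% of all genes were, and 2 in late larvae. Mipp1, a multiple inositol polyphosphate phosphatase, was lower in Dutch early larvae, at 1.84, 2.02 and 2.98 CPM against 6.86, 5.49 and 3.93 CPM (log2 fold change -1.25, SE 0.26, edgeR adjusted p = 0.00339). Among the genes of these lists this was the largest early difference, and it ran opposite to Inos. The kinases Ipk2 and Ip6k were lower in Dutch late larvae (-0.55 and -0.45, edgeR adjusted p = 0.0290 and 0.0338), and both calls were lost with the other scalings. IP3K2, an IP3 3-kinase, had the highest mean level, 25.3 TPM, and was not called.

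The substrate side consisted of 9 genes that make or use glucose-6-phosphate, of which 8 were kept, and none of the 8 was called in early larvae. Hex-C, a hexokinase and so a source of glucose-6-phosphate, was the gene of all 7 lists with the largest prepupal difference. It stood at 56.5, 53.7 and 52.1 CPM in Dutch and 22.8, 23.1 and 19.8 CPM in Zambian prepupae, a log2 fold change of 1.31 (SE 0.18, edgeR adjusted p = 7.23e-05). In late larvae it was at 11.3, 17.8 and 16.4 CPM against 11.4, 8.70 and 10.1 CPM, with a log2 fold change of 0.59 (adjusted p = 0.0225 by edgeR) although 1 Dutch library lay below the highest Zambian one. Hex-C moved against Inos over the stages, since it rose from the late stage to prepupae by 1.83 and 1.12 on the log2 scale in the Netherlands and Zambia (edgeR adjusted p = 1.1e-06 and 0.000277). Hex-t2, a hexokinase known from testis, was higher in Dutch late larvae at a low level, 1.41 against 0.512 CPM (log2 fold change 1.43, edgeR adjusted p = 0.00866).

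From the early to the late stage, 22 of the 50 pathway genes were called in the Netherlands (7 rose and 15 fell) and 28 in Zambia (15 rose and 13 fell), where 41.6% (18.4% risen, 23.2% fallen) and 35.6% (18.7% risen, 17.0% fallen) of all genes were called. With upper-quartile factors the Dutch count was 19 risen and 10 fallen, so the balance of directions again depends on the scaling. From the late stage to prepupae 13 were called in the Netherlands (7 rose, 6 fell) and 7 in Zambia (2 rose, 5 fell), where 15.1% (7.68% risen, 7.45% fallen) and 12.3% (3.64% risen, 8.69% fallen) of all genes were called. In the glucose-6-phosphate list the same 4 genes fell from the early to the late stage in both populations. They were singled out after their values were seen. Pgi, which interconverts glucose-6-phosphate and fructose-6-phosphate, fell by 2.02 and 1.67 on the log2 scale in the Netherlands and Zambia, and Zw, glucose-6-phosphate dehydrogenase, by 1.87 and 1.69. Pgm1, phosphoglucomutase, fell by 1.33 and 0.97, and Tps1, trehalose-6-phosphate synthase and the most abundant of the list at a mean of 326 TPM, by 0.72 in each. The Dutch fall of Inos over this step, -2.02, was of the size of that of Pgi, and the Zambian value of Inos, -0.28, was smaller in size than that of any of these 4 genes.

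The genes whose pattern was most like that of Inos were sought over all 12459 other genes by the root mean square (RMS) difference between log2 CPM values centred on each gene's mean, over the 18 libraries. A median gene differed from Inos by an RMS of 1.74, and a gene with a flat profile would differ by 1.69. The 10 nearest genes had an RMS of 0.59 to 0.78. In order, they were Ugt37A3, Cyp9b1, Faa, alpha-Est4, CG43341, Nha2, Cyp12a4, Cyp9b2, Ugt37A2 and CG3984. Ugt37A3 and Ugt37A2 encode UDP-glycosyltransferases, Cyp9b1, Cyp9b2 and Cyp12a4 cytochromes P450, alpha-Est4 a carboxylesterase, Faa the fumarylacetoacetase of tyrosine breakdown and Nha2 a sodium/proton antiporter. Since they were selected by their profile, which includes the early libraries, their fold changes are given as a description only.

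The nearest, Ugt37A3, had means of 225 CPM in Dutch and 37.3 CPM in Zambian early larvae, 85.2 and 13.9 CPM in late larvae, and 20.2 and 4.78 CPM in prepupae. Its gap between the populations was nearly constant, at 2.59, 2.62 and 2.07 on the log2 scale, where that of Inos shrank from stage to stage. Faa had the gap most like that of Inos, with 40.4 against 2.88 CPM in early larvae and log2 fold changes of 3.81, 2.58 and 1.29. Cyp9b2, the most abundant of the 10 at a mean of 132 TPM, had 422 against 206 CPM in early larvae and a log2 fold change of 1.04. All 10 genes had every Dutch early library above every Zambian one, as did 14.9% of all genes. In late larvae 9 of the 10 did so, and 19.3% of all genes. Nothing is read from these counts, since the genes were selected by their likeness to Inos over these same libraries. Pairs of these genes belong to the same families and neighbouring copies may share reads, so they are not 10 separate cases.

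**Figure D4:**
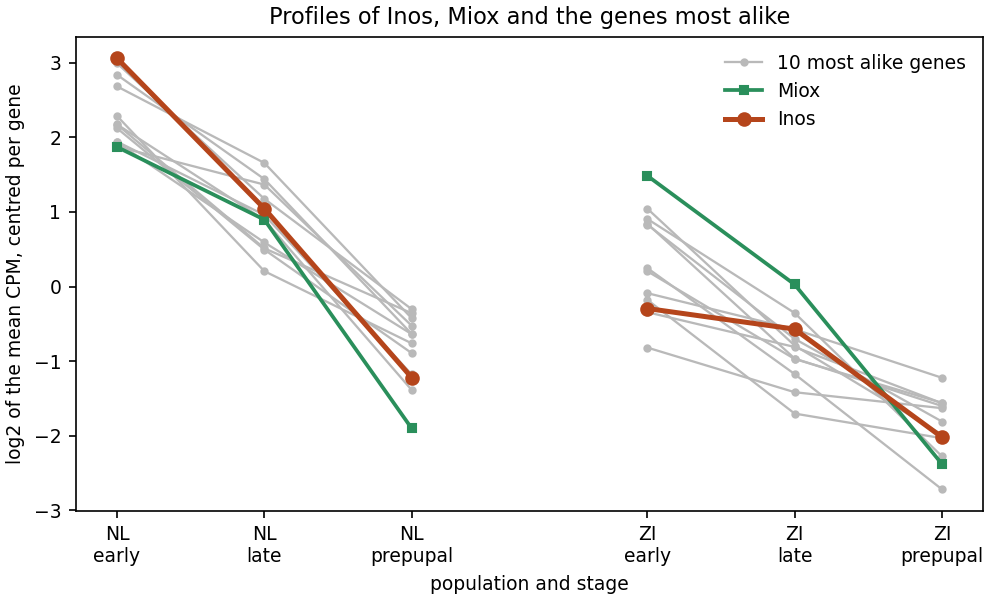
Log2 of the mean CPM, centred on each gene's mean over the 6 groups, for Inos (red), Miox (green) and the 10 genes most like Inos (grey), with the 3 Dutch groups on the left and the 3 Zambian groups on the right. Every Dutch profile falls over the stages, and in the Zambian groups Inos is lower by 0.28 in late than in early larvae and Miox by 1.46.

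With Pearson's correlation as the measure of likeness, which ignores the size of the changes, 3 of these 10 genes were again among the nearest 10, namely alpha-Est4, Ugt37A3 and CG43341. With upper-quartile scaling all 10 were. Of the pathway lists, Miox came nearest to Inos, with an RMS of 1.04 and at rank 119 among all genes.

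The genes beside Inos on chromosome arm 2R did not share its difference between the populations. CG11141, 810 bases away on the same strand, had log2 fold changes between the populations of 0.13, -0.39 and -0.13 at the early, late and prepupal stages. Its late value, opposite in sign to that of Inos, passed the test (edgeR adjusted p = 0.0296). This call was not followed with upper-quartile factors or factors from well-expressed genes, which raised the late median of all genes by 0.21 and 0.24. CG11127, 4629 bases away, had 0.14, -0.19 and -0.01, and CG11125, 4926 bases away on the other side, -0.33, -0.09 and 0.17, none of which passed the test. The noncoding gene lncRNA:CR45320 lies closer on that side, 2556 bases away, and averaged 3.67 counts, below the minimum. The mean level of CG11141 stayed between 7.30 and 10.1 CPM in all 6 groups, over which Inos went from 195 to 5.78 CPM. CG11127 went down over the stages, with means of 20.1, 15.5 and 13.9 CPM in the Netherlands and 18.3, 17.8 and 13.9 CPM in Zambia. Its Dutch fall from early to late larvae was called (log2 fold change -0.37, edgeR adjusted p = 0.0406). CG11141 was called higher over that step in Zambia (0.47, edgeR adjusted p = 0.00558). These stage calls were not followed with other scalings.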

How the data were processed

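RNA of pooled female fat bodies from 18 libraries was analysed. The authors deposited raw read counts per gene, obtained from ribosome-depleted, paired-end libraries by alignment to FlyBase transcripts (NextGenMap), removal of pairs whose mates hit different transcripts and addition over the transcripts of a gene. Strand use is not stated. The deposited table also holds a gene length. Genes averaging at least 15 counts over the libraries, the study's filter, were kept, and groups came from the labels.

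Fold changes and adjusted p-values came from the quasi-likelihood test of edgeR 4.0.16 in R 4.3.3 on the counts, with TMM factors, 6 groups in 1 fit and Benjamini-Hochberg adjustment over 12460 genes at 0.05. The SE is the absolute log2 fold change divided by the root of F. CPM is TMM-scaled, log2 CPM used a prior count of 2, and counts and the deposited length gave TPM. DESeq2 1.42.0, other scalings and filters, single-stage fits, a chemosensory covariate, a replicate block and each library left out were tried as alternatives. The procedure was tested on simulated data. Python 3.11.15 with numpy 2.4.6, scipy 1.17.1, pandas 2.3.3 and matplotlib 3.10.9 did the rest.

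Inos and the gene lists were chosen with earlier results of these data known. Named genes are Inos, called members of each list (up to 3 per comparison) with its most abundant member, the 10 genes most like Inos, its neighbours on the chromosome and in the early ranking. A gene that this rule picks is not reported here by name. Whether replicate numbers pair the populations was checked by the correlation of same-numbered deviations from group means: in prepupae these were 0.19, 0.14 and 0.26, so the prepupal values are also given with the number as a block, and in late larvae -0.20, -0.39 and 0.10, so the numbers were not taken as pairs there. Nothing in the labels says what a shared number marks.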

Additional observations from a re-analysis of the deposited data

How the results depend on the processing

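The early and late differences between the populations and the falls from late larvae to prepupae kept their direction under every alternative run. Over 8 alternatives other than leaving out a library, the late log2 fold change ran from 1.56 to 2.25 and the early one from 3.25 to 3.38. Fitting only the libraries compared took the late value of Inos to 1.67 (edgeR adjusted p = 0.0519) and the prepupal one to 0.77 (adjusted p = 0.00744). A fit of the prepupal libraries with the replicate block, chosen after seeing the data, gave 0.77 (adjusted p = 0.00491). In the fit of all libraries with the replicate block the late value was 1.58 (adjusted p = 0.00239) and the prepupal one 0.78 (adjusted p = 0.282), and the block changed no other call on Inos. With the chemosensory covariate the Zambian fall from late larvae to prepupae was -1.07 (adjusted p = 0.184) and the difference between populations in the early to late change -1.11. The causes of these changes were not tested, except that a fit of 6 libraries has fewer samples.

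With each library left out in turn, Inos ran from 0.97 to 1.91 in late larvae (adjusted p = 0.000601 to 0.0148), from 0.60 to 0.91 in prepupae, from -1.72 to -1.21 for the Zambian and -2.57 to -1.63 for the Dutch fall into prepupae, from -2.54 to -1.72 for the Dutch early to late change and from -2.38 to -1.44 for its difference from the Zambian one. The Zambian early to late change ran from -0.49 to 0.01, the latter without Zambian late replicate 3.

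The counts over all genes that serve as background moved more. With the chemosensory covariate 1833 genes were called between the populations in early larvae, 777 in late larvae and 957 in prepupae, against 938, 3463 and 592, and 3264 for the Dutch early to late and 747 for the Zambian late to prepupal change, against 5180 and 1536. Fits of the libraries compared called 1658 genes in late larvae and 1017 in prepupae. With a library left out, 1771 to 4114 genes were called in late larvae, 377 to 830 in prepupae and 794 to 2104 for the Zambian late to prepupal change. Pearson's correlation shared 3 of the 10 genes most like Inos. In late larvae 1711 genes were called higher and 1752 lower in the Netherlands, but 2441 and 885 with upper-quartile factors and 2743 and 773 with factors from well-expressed genes.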
